A study of Mus musculus with 14 samples.

Results

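Kupffer cells are the resident macrophages of the liver. They sit inside the sinusoids, the small vessels between plates of hepatocytes, where they clear bacteria, endotoxin, worn-out red cells and cell debris from blood that arrives from the gut. Their identity is known to depend on signals from sinusoidal endothelium and stellate cells, among them Notch ligands and BMP and TGF-beta family factors, and on transcription factors that include LXR-alpha and ID3. Kupffer cells are also known as a source of acyloxyacyl hydrolase in mouse liver, the enzyme encoded by Aoah that removes fatty acids from bacterial endotoxin.

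The 10 genes described here are genes of these resident macrophages, taken by symbol from the 29923 genes of a table of transcript abundance in TPM, a unit scaled to gene length and to the total of each library. The 6 surface receptors are Clec4f, Vsig4, Timd4, Marco, Cd163 and Folr2. Cd5l encodes a secreted protein, Nr1h3 and Id3 encode transcription regulators, and Slc11a1 encodes a metal transporter. All 10 reached 1 TPM in at least 3 of the 14 tumours, the filter that 13466 genes passed.

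The samples were whole hepatocellular carcinomas of C57BL/6 mice, raised by injecting transposon plasmids and the SB100 transposase into the tail vein. Every tumour carried MYC and luciferase, and the LucOS model also carried the OVA, SIN and SIY antigens, which the Luc model lacked. There were 4 Luc tumours with an Aoah plasmid and 4 with its empty vector, and 3 LucOS tumours with Aoah and 3 with vector. A plasmid for activated beta-catenin is listed too, without a statement of which tumours received it, and neither the age nor the number of animals is given. The promoter that drives Aoah is not named, so the cells that expressed it are not known. Because TPM keeps no read depth, the depth of each library is unknown.

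Aoah itself was read first, as a check of the labels. It stood at 504, 685, 284 and 519 TPM in the Luc tumours with Aoah, against 18.6, 0.74, 54.8 and 0.89 TPM in those with vector. The LucOS tumours with Aoah had 576, 589 and 931 TPM, against 1.28, 1.59 and 3.43 TPM with vector. Every Aoah tumour was above every vector tumour, and Luc vector 3, followed by Luc vector 1, held more Aoah than the other vector tumours. Endogenous and plasmid transcripts cannot be told apart in this table. In LucOS Aoah 3, mitochondrial genes took 16.6% of all TPM, against 3.41% to 8.45% in the other tumours. In Luc Aoah 3, a class of 244 small noncoding RNA genes took 7.50%, against 0.0520% to 0.109% elsewhere. The libraries held 11478 to 12836 genes at 1 TPM or more.

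The bases ahead of the start sites of Clec4f, Vsig4 and Timd4 are given from RefSeq on build GRCm38.p6, reading towards each gene. Vsig4 and Timd4 were the members whose pattern over the tumours was most like that of Clec4f. Capitals mark hexamers of 4 motifs searched on both strands. These were GAGGAA, a core bound by PU.1, a factor of all macrophages; TGGGAA, a core bound by RBPJ, which mediates Notch signals; AGGTCA, a half-site of nuclear receptors such as LXR; and TGCTGA, a half-site of MAF factors. The stretches are chr6:83656117-83656366 on the minus strand for Clec4f, chrX:96293439-96293688 on the minus strand for Vsig4, and chr11:46810549-46810798 on the plus strand for Timd4.
Clec4f: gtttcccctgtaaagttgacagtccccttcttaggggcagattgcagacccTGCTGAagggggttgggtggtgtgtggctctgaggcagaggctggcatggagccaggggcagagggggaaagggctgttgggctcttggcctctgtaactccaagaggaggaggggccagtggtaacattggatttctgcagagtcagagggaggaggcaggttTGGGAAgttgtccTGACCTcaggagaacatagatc
Vsig4: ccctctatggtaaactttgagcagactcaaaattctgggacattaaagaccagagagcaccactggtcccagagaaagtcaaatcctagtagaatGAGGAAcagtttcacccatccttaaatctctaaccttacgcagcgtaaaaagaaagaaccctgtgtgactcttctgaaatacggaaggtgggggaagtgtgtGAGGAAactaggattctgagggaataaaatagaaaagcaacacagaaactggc
Timd4: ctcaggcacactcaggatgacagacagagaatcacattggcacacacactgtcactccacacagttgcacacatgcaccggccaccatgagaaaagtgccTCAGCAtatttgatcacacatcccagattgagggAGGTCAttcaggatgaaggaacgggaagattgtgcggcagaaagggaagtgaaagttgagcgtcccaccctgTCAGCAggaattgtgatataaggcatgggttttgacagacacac

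The Clec4f stretch held 1 match each of the RBPJ core, the nuclear receptor half-site (on the opposite strand) and the MAF half-site. The Vsig4 stretch held 2 matches of the PU.1 core and none of the other motifs. In the Timd4 stretch, 1 nuclear receptor half-site and 2 MAF half-sites, both on the opposite strand, were found. None of these marked matches overlapped another. Over the promoters of all 10 genes, the PU.1 core occurred in 5, against 23.3% of 32851 mouse promoters of 250 bases. The RBPJ core occurred in 4 (21.6% of promoters), the nuclear receptor half-site in 3 (14.0%) and the MAF half-site in 4 (16.1%). A match is a run of letters, not evidence of binding.

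Ranked by the median TPM over the 14 tumours, a scale that is adjusted for gene length, Cd5l was the most abundant of the 10 at 58.9 TPM, followed by Nr1h3 at 49.7 TPM. Next came Clec4f at 22.3, Vsig4 at 14.8, Id3 at 10.5 and Slc11a1 at 8.25 TPM. At the low end were Folr2 at 4.85, Marco at 3.47, Timd4 at 1.17 and Cd163 at 0.895 TPM. Neighbours in this order were not all separate. Cd5l exceeded Nr1h3 in 8 of 14 tumours, Id3 exceeded Slc11a1 in 9 of 14, and Timd4 exceeded Cd163 in 9 of 14. Nr1h3, by contrast, exceeded Clec4f in all 14, and Clec4f exceeded Vsig4 in 13. The order also depended on the group. Cd163 exceeded Timd4 in 0 of 4 Luc Aoah tumours and in 4 of 4 Luc vector tumours. Folr2 exceeded Slc11a1 in 4 of 4 Luc Aoah tumours and in 0 of 4 Luc vector tumours.

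The range across tumours differed greatly among the genes. Marco ran from 0.24 to 14.7 TPM, a 61.4-fold span, and Cd163 from 0.17 to 4.34 TPM, a 25.5-fold span. Clec4f spanned 17.5-fold and Timd4 19.8-fold. Nr1h3, which hepatocytes are also known to express, spanned 2.10-fold, and Id3, known in many cell types, 2.52-fold. Timd4 reached 1 TPM in 8 tumours, Marco in 12 and Cd163 in 5, while the other 7 genes reached it in all 14.

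With Aoah, Luc tumours held more of Clec4f, Folr2, Timd4 and Nr1h3 than with vector: 4 of the 10 genes rose, none fell, and 6 did not pass the test. The 4 are a lectin, a folate receptor, a receptor for dying cells and a nuclear receptor. Of all 13466 genes tested, 7.93% rose and 14.3% fell in the same comparison (limma, adjusted p under 0.05 after Benjamini-Hochberg adjustment over all genes). The members' median log2 change was 0.60, against -0.24 over all genes tested. In bulk tumours, fewer cells of a type and less RNA per cell cannot be told apart.

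**Figure D1:**
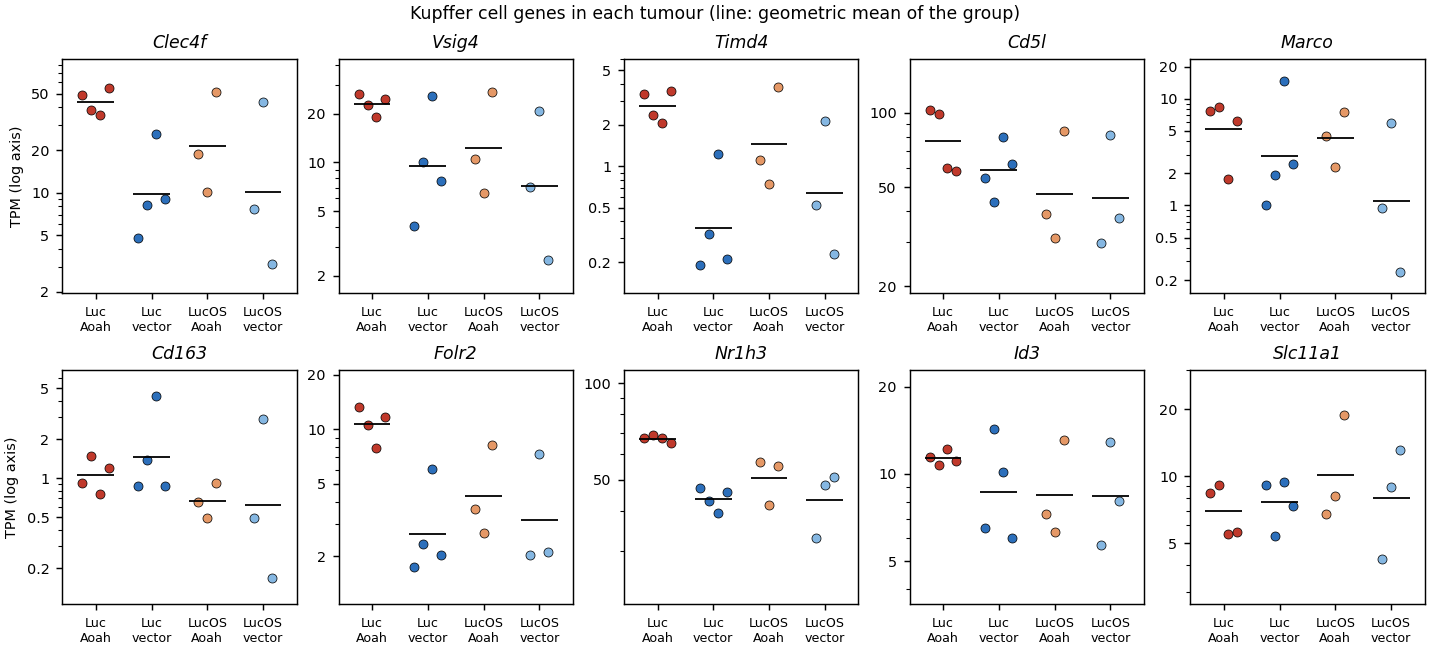
Level of each Kupffer cell gene in TPM on a log axis, 1 point per tumour, with a line at the geometric mean of each group. In the Luc model, the 4 Aoah tumours of Clec4f, Timd4, Folr2 and Nr1h3 sit above all 4 vector tumours, while in the LucOS model the groups overlap for all 10 genes.

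Clec4f, a galactose-binding C-type lectin that in mice is largely restricted to Kupffer cells, stood at 48.6, 38.2, 35.2 and 54.7 TPM in Luc Aoah tumours, against 4.82, 8.23, 25.9 and 8.97 TPM in Luc vector tumours. The groups did not overlap, though Luc vector 3 came nearest to the Aoah tumours. The log2 change was 2.02 ± 0.67 (SE), with an adjusted p of 0.0460 in limma. In LucOS tumours, the levels were 18.7, 10.0 and 51.7 TPM with Aoah, against 7.72, 43.9 and 3.12 TPM with vector. One tumour of each LucOS group was far above the others, and the change of 0.94 ± 0.77 did not pass the test (limma adjusted p = 0.710).

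Timd4, the receptor for phosphatidylserine on dying cells that marks long-lived Kupffer cells, had 3.35, 2.36, 2.07 and 3.51 TPM in Luc Aoah tumours, against 0.19, 0.32, 1.22 and 0.21 TPM in Luc vector tumours. All 4 Aoah tumours lay above all 4 vector tumours. It rose by 1.40 ± 0.35 on the log2 scale (SE; adjusted p = 0.0158 by limma), and since most vector values lie below the pseudocount of 1, this scale understates the change. LucOS tumours gave 1.12, 0.74 and 3.77 TPM with Aoah, against 0.52, 2.15 and 0.23 TPM with vector. There the groups overlapped, and the change of 0.53 ± 0.40 did not pass (limma adjusted p = 0.682).

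Folr2 encodes folate receptor beta, found on resident macrophages of many tissues. It measured 13.3, 10.5, 7.92 and 11.6 TPM in Luc Aoah tumours, against 1.75, 2.33, 6.06 and 2.04 TPM in Luc vector tumours. The groups were again separate, with Luc vector 3 highest among the vector tumours, and Folr2 rose by 1.64 ± 0.39 on the log2 scale (SE; adjusted p = 0.0127 by limma). In the LucOS model it measured 3.63, 2.68 and 8.15 TPM with Aoah, against 2.03, 7.33 and 2.12 TPM with vector. That change, 0.33 ± 0.45, did not pass (limma adjusted p = 0.866).

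Nr1h3 encodes LXR-alpha, a nuclear receptor for oxysterols that Kupffer cells need for their identity. Its levels were 67.6, 68.9, 67.4 and 65.2 TPM in Luc Aoah tumours, against 47.1, 42.9, 39.5 and 45.8 TPM in Luc vector tumours. Both groups were tight, and in contrast to the 3 receptors above Luc vector 3 was the lowest vector tumour. Nr1h3 thus rose by 0.61 ± 0.17 on the log2 scale (SE; adjusted p = 0.0256 by limma). LucOS tumours had 56.8, 41.8 and 55.3 TPM with Aoah, against 32.9, 48.4 and 51.0 TPM with vector. The LucOS groups overlapped, with a change of 0.23 ± 0.20 that did not pass (limma adjusted p = 0.734). Nr1h3 overlaps Acp2 and a predicted gene in RefSeq, and whether the libraries kept strand is not stated, so some reads may be shared. The same holds for Folr2 and Cd163, each of which overlaps 1 predicted gene there.

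These 4 were also the genes whose Luc groups did not overlap, a separation in the higher direction that 11.8% of all tested genes showed. In the LucOS model, no member had all Aoah tumours above all vector tumours, against 6.22% of tested genes. How firmly each Luc call held differed. Folr2 passed under all 23 alternative settings run, and Timd4 under 21, missing when Luc Aoah 4 was left out (limma adjusted p = 0.0562) and when Luc vector 1 and 3 were left out together (0.0735). Nr1h3 passed under 13 and Clec4f under 10. Leaving out Luc Aoah 1, 3 or 4, or Luc vector 1 or 4, ended the calls of both Clec4f and Nr1h3, and only 1 or 2 members were then called in place of 4. Clec4f alone also missed without Luc Aoah 2, Luc vector 2, LucOS Aoah 1 or LucOS vector 1, and Nr1h3 alone without Luc vector 3. Over all settings the adjusted p of Clec4f ran from 0.00958 to 0.163 and that of Nr1h3 from 0.00239 to 0.195 (limma). The changes of Clec4f over all settings stayed between 1.72 and 2.45, and those of Nr1h3 between 0.56 and 0.93, each above 0 under every setting run.

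The other receptors did not separate the Luc groups. Vsig4, the complement receptor CRIg that takes up opsonised bacteria, had 26.6, 22.6, 19.1 and 24.6 TPM with Aoah, against 4.07, 10.1, 25.7 and 7.70 TPM with vector. Luc vector 3 was within the range of the Aoah tumours. The log2 change of 1.17 ± 0.56 (SE) did not pass (limma adjusted p = 0.124). In LucOS tumours, Vsig4 had 10.5, 6.49 and 27.1 TPM with Aoah, against 7.01, 20.8 and 2.50 TPM with vector (change 0.66 ± 0.64, limma adjusted p = 0.779).

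Marco, a class A scavenger receptor, had 7.74, 8.36, 1.76 and 6.21 TPM in Luc Aoah tumours, against 1.01, 1.94, 14.7 and 2.46 TPM in Luc vector tumours. Luc vector 3 had more Marco than any other tumour of the series, and Luc Aoah 3 had less than 3 of the 4 Luc vector tumours. The LucOS levels were 4.47, 2.29 and 7.50 TPM with Aoah, against 0.95, 5.91 and 0.24 TPM with vector. Neither change, 0.58 ± 0.64 in Luc and 1.06 ± 0.74 in LucOS (SE), passed the test (limma adjusted p = 0.497 and 0.645).

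Cd163, the receptor for haemoglobin bound to haptoglobin, was low throughout. It had 0.92, 1.50, 0.76 and 1.20 TPM in Luc Aoah tumours, against 0.87, 1.38, 4.34 and 0.87 TPM in Luc vector tumours. Its LucOS values were 0.66, 0.49 and 0.92 TPM with Aoah, against 0.49, 2.90 and 0.17 TPM with vector. The highest value in each model was thus a vector tumour. Its Luc change of -0.31 ± 0.37 (SE; limma adjusted p = 0.523) went to 0.00 once each tumour was centred on its median and to 0.04 without Luc vector 3.

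Among the remaining genes, Cd5l encodes a secreted scavenger protein also called AIM, made by tissue macrophages. It had 103, 98.5, 59.8 and 58.0 TPM in Luc Aoah tumours, against 54.8, 43.8, 79.6 and 62.0 TPM in Luc vector tumours. Luc Aoah 1 and 2 stood above the rest, and Luc Aoah 3 and 4 lay within the vector range. Its log2 change, 0.39 ± 0.35, did not pass (SE; adjusted p = 0.407 by limma). In LucOS tumours, Cd5l had 39.2, 31.1 and 84.5 TPM with Aoah, against 29.9, 81.3 and 37.8 TPM with vector, a change of 0.05 ± 0.40 (limma adjusted p = 0.984).

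Id3, an inhibitor of helix-loop-helix factors that acts in Kupffer cell development, had 11.5, 10.8, 12.2 and 11.1 TPM in Luc Aoah tumours, against 6.52, 14.3, 10.1 and 6.00 TPM in Luc vector tumours. The Aoah tumours fell inside the wider vector range. Slc11a1, also called NRAMP1, exports metal ions from phagosomes and limits bacterial growth there. It had 8.37, 9.16, 5.49 and 5.59 TPM in Luc Aoah tumours, against 9.11, 5.40, 9.41 and 7.30 TPM in Luc vector tumours. Its groups overlapped almost fully. Neither gene passed in Luc, with log2 changes of 0.34 ± 0.29 and -0.11 ± 0.34 (SE; limma adjusted p = 0.381 and 0.814), and the change of Slc11a1 was 0.20 after centring each tumour on its median. In LucOS tumours, Id3 had 7.25, 6.32 and 13.1 TPM with Aoah, against 5.69, 12.8 and 8.04 TPM with vector. Slc11a1 had 6.72, 8.13 and 18.8 TPM with Aoah, against 4.26, 8.96 and 13.1 TPM with vector.

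**Figure D2:**
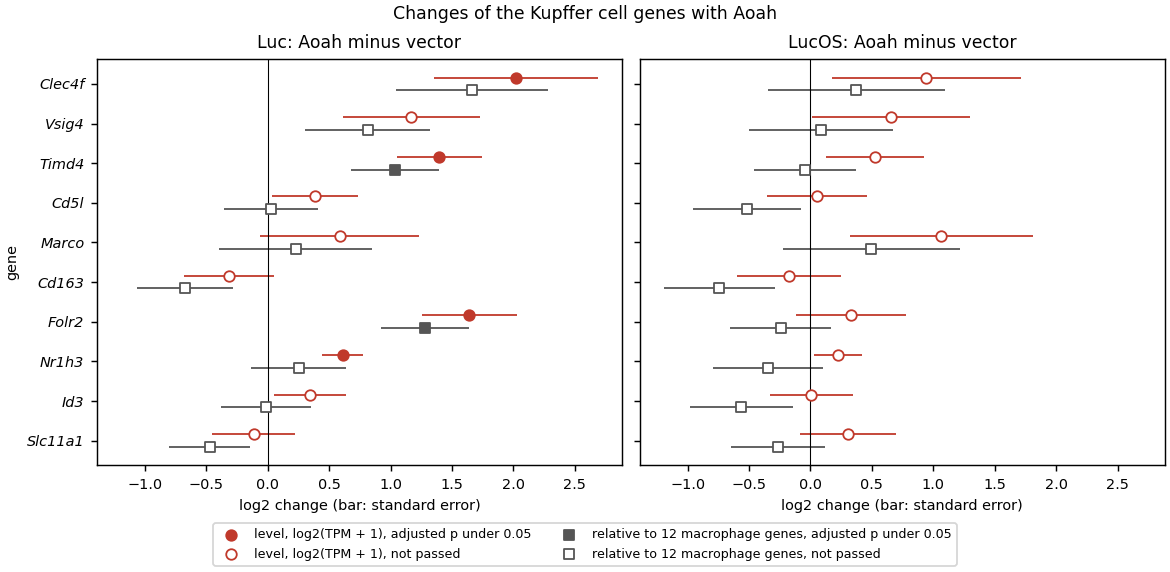
Log2 change of each gene, Aoah minus vector, with its standard error, in the Luc and LucOS models. Circles are levels on the log2(TPM + 1) scale, squares are changes relative to the mean of 12 macrophage genes, and filled symbols passed the test. Folr2 and Timd4 are filled on both scales in Luc, and nothing is filled in LucOS.

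The submitters' own comparison gave a longer list for Luc. In the authors' deposited table, 6 of the 10 genes were higher with Aoah at an adjusted p under 0.05, a call made for 15.6% of the genes that table tests. They were Timd4 with a log2 fold change of 2.84, Clec4f with 2.20, Folr2 with 2.12, Vsig4 with 1.26, Nr1h3 with 0.92 and Cd5l with 0.68, by the authors' deposited table. Vsig4 and Cd5l, with adjusted p of 0.0221 and 0.00654 there, are thus called in the authors' deposited table and not by limma. For Marco the authors' deposited table gives a fold change of 0.49 and leaves the p-value empty. For LucOS it calls none of the 10, against 1.99% of its genes called higher.

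In LucOS tumours, none of the 10 genes passed in either direction with limma, and none had an unadjusted p under 0.05. Over all genes, 0.75% rose and 0.215% fell, so calls were rare in this comparison of 3 tumours with 3. The members' median log2 change was 0.32, against -0.02 over all genes, and 9 of 10 changes were above 0. Within each LucOS group a single tumour led. LucOS Aoah 3 was highest of its group for 9 of the 10 genes and LucOS vector 2 for 8. LucOS Aoah 2 was the lowest of its group for 9 genes. Without LucOS vector 2 the change of Clec4f was 1.91, and without LucOS vector 3 it was 0.19, so the size of the LucOS change depended on a single tumour.

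Over both models, Timd4, Folr2 and Nr1h3 passed, with mean log2 changes of 0.96 ± 0.26, 0.98 ± 0.30 and 0.42 ± 0.13 (SE; limma adjusted p = 0.0254, 0.0381 and 0.0428). In that comparison 8.02% of all genes rose and 6.68% fell. Clec4f, at 1.48 ± 0.51, did not pass (limma adjusted p = 0.0667). It passed after centring each tumour on its median (1.63, limma adjusted p = 0.0244), without Luc vector 3 (1.70, 0.0410) and without LucOS vector 2 (1.97, 0.00467). No member was called without Luc Aoah 4, LucOS Aoah 3, Luc vector 1 or Luc vector 4. Without Luc Aoah 1, LucOS Aoah 1, LucOS vector 1 or LucOS vector 3, 1 was called, and without LucOS vector 2, 5 were. Without Luc Aoah 3 or Luc vector 2, 2 were called. This comparison uses the same tumours as the 2 above it.

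The difference between the models' Aoah effects was tested directly. No member passed, and 1 member, Folr2, had an unadjusted p under 0.05, with a LucOS effect lower than the Luc effect by a log2 difference of -1.31 ± 0.59 (SE; limma adjusted p = 0.443). Of all genes, 0% were called with a larger effect in LucOS and 0.00743% with a smaller one. The Luc calls and the missing LucOS calls therefore do not show that the models differ for these genes.

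The antigen comparisons gave no calls among the 10 genes. Among Aoah tumours, LucOS lay below Luc for 9 of 10 genes, with a members' median log2 change of -0.47 against -0.01 over all genes. Folr2, at -1.12 ± 0.42, and Nr1h3, at -0.40 ± 0.18, had an unadjusted p under 0.05 (SE; limma adjusted p = 0.628 and 0.703). In that comparison limma called 0% of all genes higher and 0.0817% lower in LucOS. Among vector tumours no member had an unadjusted p under 0.05, and 0% of all genes were called in either direction, although 1918 genes had an unadjusted p under 0.05. The members' median was -0.03 there, against -0.25 over all genes.

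Macrophages in general were read from 12 genes shared by many macrophage types. Their mean log2(TPM + 1) was 4.47 in Luc Aoah tumours and 4.11 in Luc vector tumours, and 4.78 in LucOS Aoah tumours and 4.21 in LucOS vector tumours. Only Lyz2, the lysozyme of myeloid cells, rose among the 12 in Luc, with a log2 change of 1.88 and a limma adjusted p of 0.00127. Adgre1, which encodes F4/80, changed by 0.73 (0.0766) and Csf1r, the receptor for the growth factor CSF1, by -0.35 (0.592), neither passing. Their summed level was 602 to 654 TPM in Luc Aoah tumours, against 284 to 447 TPM in Luc vector tumours. Their LucOS range was 495 to 1382 TPM with Aoah, against 325 to 690 TPM with vector. Lyz2 averaged 285 TPM in Luc Aoah tumours and 77.6 TPM in Luc vector tumours. Without it, the other 11 genes summed to 278 to 414 TPM in Luc Aoah tumours, against 212 to 387 TPM in Luc vector tumours, and these ranges overlap. The LucOS sums of these 11 were 268 to 900 TPM with Aoah, against 160 to 452 TPM with vector.

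When that mean was subtracted in each tumour, 2 of the 10 genes were still higher with Aoah in Luc. Folr2 changed by 1.28 ± 0.36 and Timd4 by 1.04 ± 0.36 relative to the macrophage genes (SE; limma adjusted p = 0.00645 and 0.0240). Clec4f, at 1.66 ± 0.62, no longer passed (limma adjusted p = 0.0547), and Nr1h3 changed by 0.25 ± 0.39. On this scale 2.55% of all genes rose and 29.3% fell, with a median over all genes of -0.60 against 0.24 for the members. Leaving out Luc Aoah 1, 3 or 4, or Luc vector 1 or 4, left 1 call in place of 2. With the Luc tumours fitted alone there were 5, Clec4f, Folr2 and Timd4 higher and Cd163 and Slc11a1 lower. In LucOS, 0.319% of all genes rose and 0.408% fell relative to the macrophage genes, no member was called, and no member had an unadjusted p under 0.05. The members' median there was -0.25, against -0.59 over all genes, and 3 of the 10 changes were above 0.

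**Figure D3:**
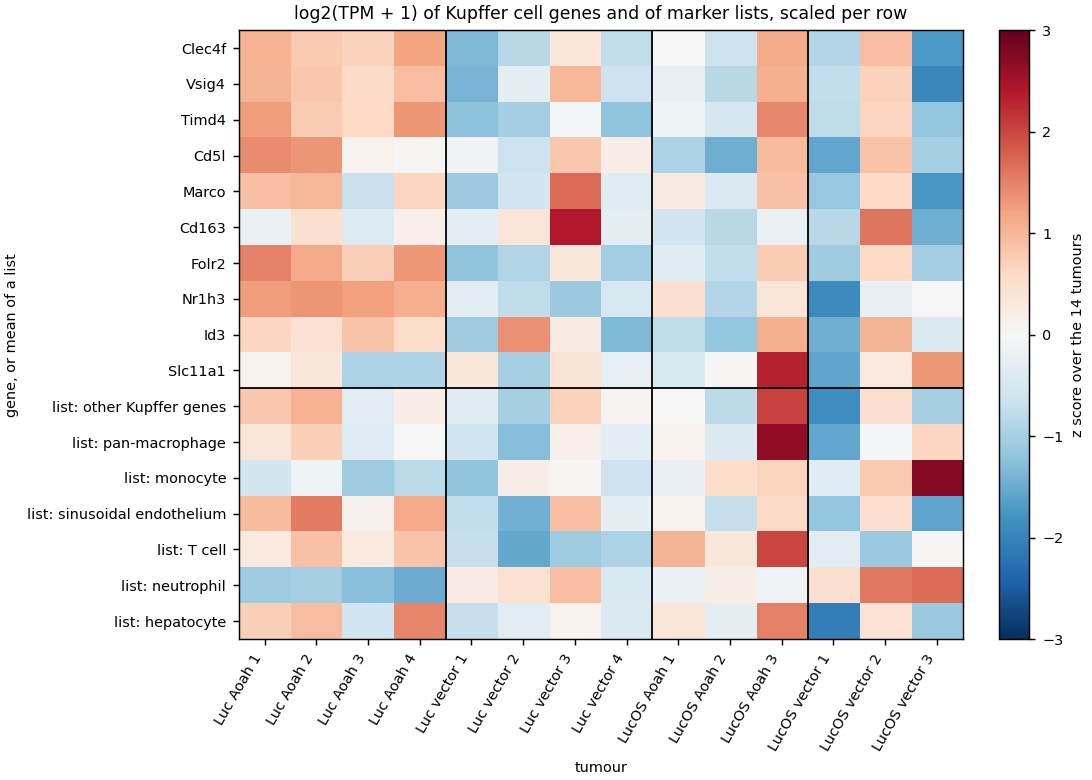
Log2(TPM + 1) of the 10 genes and the mean of 7 marker lists in each of the 14 tumours, scaled per row to a z score; red is above and blue below that row's mean. Luc vector 3, LucOS Aoah 3 and LucOS vector 2 are red for most Kupffer cell genes within their groups, and the sinusoidal endothelium list is high in the same tumours.

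Individual tumours moved as a block. Luc vector 3 was the highest vector tumour of its model for 8 of the 10 genes, LucOS vector 2 likewise for 8, and Luc Aoah 3 was the lowest Luc Aoah tumour for 7. The summed level of the 10 genes was 212 to 291 TPM in Luc Aoah tumours, against 130 to 217 TPM in Luc vector tumours, where Luc vector 3 held the 217. In LucOS it was 110 to 271 TPM with Aoah, against 91.4 to 234 TPM with vector. Markers of sinusoidal endothelium and of hepatocytes moved with them. By summed TPM, the macrophage list and the stellate and fibroblast list were also highest in Luc vector 3 and LucOS Aoah 3 within their groups, but not in LucOS vector 2. By mean log2(TPM + 1), the stellate and fibroblast list was highest in LucOS vector 2 too, at 2.21. The lists of niche signals, LXR targets and further Kupffer cell genes, described below, were highest in Luc vector 3, LucOS Aoah 3 and LucOS vector 2 within their groups. The movement was thus not particular to endothelium and hepatocytes. For endothelium, the summed level was 19.7 to 36.6 TPM in Luc Aoah tumours, against 6.10 to 26.0 TPM in Luc vector tumours. Their LucOS range was 10.4 to 22.1 TPM with Aoah, against 5.44 to 22.4 TPM with vector, and in each of these groups but Luc Aoah the tumour highest for Clec4f was also highest for this list. The 8 hepatocyte genes summed to 7497 to 24280 TPM in Luc Aoah tumours, against 7003 to 9461 TPM in Luc vector tumours. The LucOS sums were 8630 to 19077 TPM with Aoah, against 3657 to 10111 TPM with vector. In all 4 groups the tumour highest for Clec4f was also highest for the hepatocyte list. None of the 7 endothelial and 8 hepatocyte markers was at 0 in any tumour, and their part in the result was not tested.

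**Figure D4:**
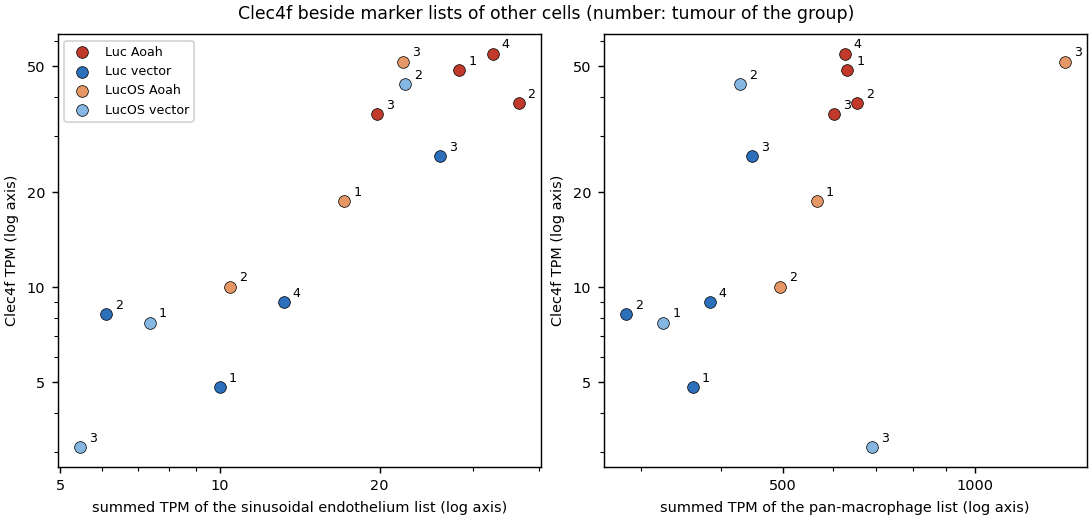
Clec4f in TPM against the summed TPM of 7 sinusoidal endothelium markers (left) and of 12 macrophage genes (right), both on log axes, 1 point per tumour. Luc vector 3 and LucOS vector 2 stand above the other vector tumours on both axes of the left panel, and LucOS vector 3 pairs 690 TPM of macrophage genes with the lowest Clec4f level, 3.12 TPM.

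The genes whose pattern over the 14 tumours was most like that of each main member were named by Pearson's r on log2(TPM + 1), with no test, because they were chosen for likeness. Each point is 1 library, so differences between tumours in depth or cell content enter every r. For Clec4f these were Fabp7 (r = 0.97), a fatty acid binding protein known in mouse Kupffer cells, Vsig4 (0.96) and Timd4 (0.96). Fabp7 stood at 10.9 to 15.1 TPM in Luc Aoah tumours, against 1.81 to 8.48 TPM in Luc vector tumours. Its LucOS range was 4.56 to 20.8 TPM with Aoah, against 1.14 to 11.0 TPM with vector. Vsig4 was most like Clec4f (0.96), Fabp7 (0.95) and Folr2 (0.90). Timd4 was most like Clec4f (0.96), Folr2 (0.96) and Cd55 (0.96), the last a brake on complement. Spearman's rho for these pairs was 0.85 to 0.95, and r was 0.90 to 0.97 without the 2 tumours farthest from the member's median.

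Cd5l and Marco had other companions. Cd5l was most like Bank1 (0.93), a B cell scaffold protein, Stab2 (0.90), a scavenger receptor of sinusoidal endothelium, and Aqp1 (0.90), a water channel of vessels and bile ducts. Marco was most like Cyp2d22 (0.90), a cytochrome P450 enzyme, Bend7 (0.90) and Il11ra1 (0.90), a chain of the interleukin-11 receptor. Bank1 and Bend7 were low, at 0.68 to 1.8 TPM and 0.2 to 1.69 TPM over all tumours, near the pseudocount of 1. None of the 3 likest genes of Cd5l or Marco was among the 10 members.

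Of 10 further genes known in Kupffer cells, 1 rose in Luc and 1 in LucOS, and in both cases it was Hpgd, which breaks down prostaglandins. The share of all tested genes that rose was 7.93% in Luc and 0.75% in LucOS. Hpgd averaged 116 ± 21.5 TPM in Luc Aoah tumours and 65.5 ± 8.46 TPM in Luc vector tumours (SD, n = 4 each), a log2 change of 0.80 with a limma adjusted p of 0.0240. In LucOS it averaged 101 ± 19.4 TPM with Aoah and 45.7 ± 17.1 TPM with vector (SD, n = 3 each; log2 change 1.16, limma adjusted p = 0.0466). Clec1b changed by 0.58 and the iron exporter Slc40a1 by 0.30 in Luc, neither passing (limma adjusted p = 0.283 and 0.256). The list's median log2 change was 0.28 in Luc and 0.31 in LucOS.

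Genes for the signals that are known to keep Kupffer cells were read next. Of 10 such niche genes, 6 passed the filter, and in Luc only Vcam1, an adhesion molecule, was called, lower by a log2 change of -0.91 (limma adjusted p = 0.0263). It was chosen after its value was seen, and 14.3% of all tested genes were called lower in Luc. Cxcl12, a chemokine, changed by 1.04 in Luc (limma adjusted p = 0.0779) and passed over both models at 1.05 (0.0389). The Notch ligand Dll1 changed by 0.16 and the BMP family ligand Gdf2 by 0.27 in Luc, neither passing. Of 3 tested genes of the BMP response, Id1 changed by -0.43, Id2 by -0.36 and Smad7 by -0.23 in Luc, with no call.

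Of 10 targets of LXR in Luc, 1 rose and 2 fell, shares close to the 7.93% higher and 14.3% lower over all tested genes, with a median log2 change of -0.66 against -0.24 over all genes. Apoc1, an apolipoprotein, rose by a log2 change of 1.91 (limma adjusted p = 0.000352). The cholesterol exporters Abcg1 and Abcg8 fell by 1.06 and 1.10 on the log2 scale (0.0257 and 0.0464), Abcg8 being named after its value was seen. Apoe changed by 0.71 and did not pass. Hepatocytes express most of these genes as well. Of 8 genes for ligands of the receptors, C3, Hp and Cfb had Luc changes of -1.47, -0.71 and -0.34, and none of the 8 was called in either model.

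Other cell types were counted in the same Luc comparison, in which 7.93% of all tested genes rose and 14.3% fell. Of 5 tested monocyte genes, Ly6c2 and Ccr2 rose and Chil3 and F13a1 fell. Of 5 tested neutrophil genes 4 fell (S100a8, S100a9, Retnlg and Mmp8), and of 5 genes of lipid-associated macrophages none was called, with Fabp5, Cd9 and Gpnmb at changes of -0.62, -0.49 and 0.06. F13a1 reached 1 TPM in 4 tumours and Mmp8 in 5, all with vector. Their highest Aoah values were 0.39 and 0.21 TPM in Luc, and 0.59 and 0.63 TPM in LucOS. Both entered the test only through groups where they were high, so their falls are not independent of the filter, and both lie near the pseudocount. Of 7 endothelial genes 2 rose, Clec4g with a log2 change of 1.75 and Kdr with 0.70, while Pecam1 changed by 0.63 without passing. Of 6 stellate and fibroblast genes 4 rose, namely Lrat, Col3a1, Dcn and Rgs5, and 4 of 6 T cell genes rose, namely Cd3d, Cd3g, Lck and Cd8a. Lrat reached 1 TPM in 5 tumours, all with Aoah, and its highest vector values were 0.41 TPM in Luc and 0.44 TPM in LucOS. It thus entered the test only through groups where it was high, so its rise is not independent of the filter, and it lies near the pseudocount. Of 8 hepatocyte genes 3 rose, namely Cyp3a11, Ttr and Alb, and Fgb fell. Ccr2, S100a9, Rgs5, Cd8a and Alb were named after their values were seen. The single B cell gene tested, Cd79b, rose, and none of 7 dendritic cell genes passed the filter. In LucOS, of all these lists, Cd3g and Ttr alone were called, both higher, while 0.75% of all tested genes rose and 0.215% fell. The part of these cell types in the Kupffer cell values was not tested.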

How the data were processed

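Whole-tumour RNA of 14 tumours in 4 groups was analysed, with groups taken from the labels. Per the labels' protocols, poly-A RNA was captured and primed with random hexamers. RSEM, DESeq2 and build mm39 are named in the submitters' processing notes without versions, so the authors' tool settings are unknown, and no source used here names the aligner. The authors deposited expression as log2 values of TPM plus 1; TPM keeps no depth. Their 2 deposited comparison tables hold log2 fold changes, a mean normalised count as a signal, a test statistic used as a score, and p-values; the direction was read from the sign of Aoah, which is positive in both. GENCODE M21 named 95.5% and 95.6% of the identifiers in those tables. The deposited receptor repertoire table was not used here.

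TPM was taken back from the log2 values for printing. Genes that reached 1 TPM in 3 or more samples entered a limma fit (limma 3.58.1, R 4.3.3) of log2(TPM + 1), with 1 mean per group over 14 tumours, moderated variances (trend, robust) and Benjamini-Hochberg adjustment over all 13466 genes at 0.05. A second fit first subtracted the mean of 12 macrophage genes in each tumour. Adjusted p-values are from limma unless the authors' deposited table is named. The script was tested on simulated data. The members and lists were chosen with earlier results of these data known. Named genes were all 10 members, Aoah, Adgre1, Csf1r, up to 3 genes of each other list with the smallest p over both models, and the 3 genes most like each of 5 members. The lists were other Kupffer cell genes, macrophage, monocyte, lipid-associated macrophage, dendritic cell, neutrophil, sinusoidal endothelium, stellate and fibroblast, T cell, B cell, hepatocyte, niche signal, LXR target, BMP response and receptor ligand genes. Alternatives were a pseudocount of 0.1, no filter, centring, other groups in the fit, a replicate block, plain variances and leaving out tumours. A further pair was chosen after seeing the data: leaving out Luc Aoah 3 and LucOS Aoah 3 together, and TPM rescaled without mitochondrial and small RNA genes. The labels do not say that tumours came from separate animals, so p-values measure only the spread between these samples. Sequences come from RefSeq on GRCm38.p6.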

Additional observations from a re-analysis of the deposited data

Results flagged for a closer look

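One value among the 20 sets of 4 Luc tumours stood far from the rest of its group. Timd4 was at 1.22 TPM in Luc vector 3, against 0.19, 0.32 and 0.21 TPM in the other Luc vector tumours, with 0.834 of the group's log2 range between it and the nearest. Chance flags about 1 in 20 groups. The same tumour had the highest Aoah level of the vector tumours, 54.8 TPM. Luc vector 1 had the next highest, 18.6 TPM, but the lowest Timd4 level of its group, 0.19 TPM. The part of Aoah in the value was not tested.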

How the results depend on the processing

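For the 10 genes with Aoah in Luc, in LucOS and over both models, and in each model relative to macrophage genes, together with the 3 named changes of Folr2 and Nr1h3 by antigen and between models, 1089 recomputed changes kept direction and side of the threshold, 67 lost a call, 13 gained one and 39 changed sign. Of the 4 Luc calls, 2 were left without the filter on low values, 2 without Luc Aoah 3 and LucOS Aoah 3 together, 1 without Luc vector 1 and 3 together, and 1 to 4 with a single tumour left out. The 3 calls over both models became 0 in each of those first 3 settings and 0 to 5 with a single tumour left out. Relative to macrophage genes, the 2 Luc calls became 5 with only the Luc tumours fitted and 1 to 3 with a single tumour left out. Tumours of equal number did not deviate together (correlations -0.55 to 0.096). The labels do not say whether the numbers pair tumours, and correlations within groups this small cannot decide it. With a replicate block, 2 members were called in Luc and 0 over both models. The cause of these shifts was not tested.

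The sign changes were these. In Luc, centring each tumour on its median gave Cd163 a change of 0.00081 and Slc11a1 0.20, and Slc11a1 was at 0.13 without Luc vector 1 and 3. In LucOS, centring gave Id3 -0.015. Without Luc Aoah 3 and LucOS Aoah 3 together, LucOS changes were -0.36 for Cd5l, -0.054 for Folr2, -0.28 for Id3 and -0.11 for Slc11a1, the change of Slc11a1 over both models was -0.060, and relative to macrophage genes Nr1h3 had 0.085 and Timd4 0.0071. Timd4 relative to macrophage genes in LucOS was 0.42 with a pseudocount of 0.1. With single tumours left out, Luc changes of Cd163 ran from -0.47 to 0.035. In LucOS, Cd163 ran from -0.52 to 0.35, Cd5l from -0.36 to 0.47, Folr2 from -0.054 to 0.81, Id3 from -0.28 to 0.29 and Slc11a1 from -0.11 to 0.63. Over both models, Cd163 ran from -0.42 to 0.017 and Slc11a1 from -0.11 to 0.26. Relative to macrophage genes in Luc, Cd5l ran from -0.076 to 0.13, Id3 from -0.20 to 0.34 and Marco from -0.12 to 0.74. On that scale in LucOS, Clec4f ran from -0.63 to 1.27, Folr2 from -0.72 to 0.17, Marco from -0.28 to 1.14, Nr1h3 from -0.60 to 0.085, Timd4 from -0.57 to 0.29 and Vsig4 from -0.80 to 0.70. The depth of each library is unknown, and it limits most the genes near 1 TPM, Timd4 and Cd163. For Timd4 the authors' deposited tables give mean normalised counts of 87.3 in Luc and 73.6 in LucOS. The means for Cd163 are 108 and 72.5. These are averages and do not give the count in any single tumour.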
